A study of Mus musculus with 3 samples.

Results

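Interferon-stimulated genes are the genes that cells switch on when an interferon binds its receptor. 43 of them were taken by name from the expression table of MC3T3-E1 cells, a mouse preosteoblast line from calvaria, of which 41 were among the 15287 genes listed. Mx1 and Mx2 were not listed, and were not analysed here. The cells were wild type, and each of 3 conditions was measured in 1 RNA-seq library. CTL cells had no special treatment. Ti cells met titanium (Ti) particles for 24 h at a dose of 10 μg/cm2. Ti+Se-Met cells met that dose of particles with 5 μM selenomethionine (Se-Met) for 24 h. Since a condition is 1 library, the differences have no replicate check and carry no p-values.

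In background, type I interferons bind the receptor of Ifnar1 and Ifnar2, which activates the kinases JAK1 and TYK2. The signal passes to a complex that holds STAT2 and IRF9 and binds interferon-stimulated response elements in promoters. Interferon gamma acts through another element, named GAS. Many of the induced proteins restrict viruses, some sense foreign RNA, and some load peptides onto MHC class I. Bone cells also respond to interferons, which are known to restrain osteoclast formation. The study concerned how Se-Met alters the response of preosteoblasts to wear particles, and the interferon-stimulated genes are read here from its libraries.

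The levels are in FPKM, which are fragments per kilobase of transcript and of sequencing depth, so that genes can be compared with each other. A difference in level is given as the ratio of FPKM with a 95% exact conditional binomial interval on estimated fragments, which covers counting error only and compares libraries, not conditions. It is also given as a difference in log2(FPKM + 1), called the log2 difference, where the added 1 makes the value of a low gene smaller. Every count of genes past 2-fold or 1.5-fold is on this log2(FPKM + 1) scale, so a gene can pass 2-fold by its plain ratio and not be counted. Genes with at least 1 FPKM in at least 1 library were kept, 11137 in all. Of the 41 listed members 39 were kept, and all 39 were at 1 FPKM or more in every library. The 2 left out were Rsad2 and Oasl1. Where 3 levels follow each other they are in the order CTL, Ti, Ti+Se-Met. In bulk RNA, fewer cells that express a gene and less RNA per cell cannot be told apart.

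The estimated depth was 10500000 fragments for Ti+Se-Met, the shallowest library, 14100000 for CTL and 14700000 for Ti. Osteoblast lineage markers were strong for matrix genes such as Col1a2, at 2688.49 FPKM in CTL, while Ibsp, a gene of mineralizing osteoblasts, was listed at 0 except in Ti (0.04 FPKM), and Sp7 stayed below 1 FPKM. All 11 osteoblast markers were listed, and their summed level was 8869.29, 5960.33 and 7379.27 FPKM. From CTL to Ti, 8 of these markers were lower and 3 were higher. Of the 8 markers that were kept 7 were lower and 1, Spp1, was higher, against 44.5% and 55.3% of all genes kept. Ibsp and Bglap were also higher but stayed below 1 FPKM. Spp1, which encodes osteopontin, was at 1261.19, 3705.78 and 4659.49 FPKM, while Postn was at 2904.07, 419.52 and 446.61 FPKM and Col1a1 at 1333.19, 354.2 and 481.63 FPKM. Without Spp1, left out after its values were seen, the sum was 7608.1, 2254.55 and 2719.78 FPKM. The part of these markers in the results was not tested. Of 12 markers of macrophages and other leukocytes, 7 were not listed, Ptprc and Adgre1 among them, and 3 were below 0.5 FPKM in every library. The other 2 were Lyz2 (26.72, 14.76 and 12.42 FPKM) and Cd14 (5.7, 16.56 and 14.81 FPKM). The summed level of the leukocyte list was between 27.75 and 32.52 FPKM in the 3 libraries. Both listed endothelial markers of 4 were below 0.5 FPKM throughout.

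Promoter sequence gives a view of the members that the expression values did not enter. RefSeq windows on GRCm38.p6, from 250 bases before to 50 after a transcript start, were matched by symbol for 33 of the 43 members, in 39 windows. The core of the response element, taken as GAAA followed after any 2 bases by a second GAAA and searched on both strands (TTTC on the other), was in 15 of the 39 windows (38.5%) and in 3.44% of all 32851 windows. At least 2 matches, which may overlap, were in 17.9% of the member windows and in 0.225% of all. The GAS core TTCNNNGAA, which reads the same on both strands, was in 23.1% of the member windows and in 8.3% of all. 4 member windows held both motifs, and in 2 of them the matches overlapped. The members were picked by name as interferon-stimulated genes, so a high share of these motifs can follow from that choice. A match is a description of letters and not a site shown to be bound.

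The 250 bases before the start are printed for 6 members. Gbp3, Cxcl10 and Ifitm1 were past 2-fold in a comparison, Ifit3 and Ifit1 were past 1.5-fold, and Isg15 is shown for its 3 matches. Capitals mark each base that lies in a match to the response element core on either strand.

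Isg15 (chr4:156200819-156201068, - strand): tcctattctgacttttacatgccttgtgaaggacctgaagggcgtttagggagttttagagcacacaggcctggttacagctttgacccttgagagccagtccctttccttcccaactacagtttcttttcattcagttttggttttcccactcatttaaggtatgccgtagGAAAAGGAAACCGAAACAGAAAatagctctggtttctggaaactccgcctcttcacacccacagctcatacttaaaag
Ifit1 (chr19:34640639-34640888, + strand): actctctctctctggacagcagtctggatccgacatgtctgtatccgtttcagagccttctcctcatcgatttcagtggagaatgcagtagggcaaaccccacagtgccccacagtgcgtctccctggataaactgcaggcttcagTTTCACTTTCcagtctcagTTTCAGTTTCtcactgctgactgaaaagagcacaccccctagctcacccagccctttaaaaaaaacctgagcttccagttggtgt
Ifit3 (chr19:34583279-34583528, + strand): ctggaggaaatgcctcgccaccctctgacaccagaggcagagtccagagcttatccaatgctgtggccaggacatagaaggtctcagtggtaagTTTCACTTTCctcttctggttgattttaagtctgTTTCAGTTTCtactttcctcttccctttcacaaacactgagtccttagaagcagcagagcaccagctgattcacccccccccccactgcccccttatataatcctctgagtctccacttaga
Gbp3 (chr3:142559794-142560043, + strand): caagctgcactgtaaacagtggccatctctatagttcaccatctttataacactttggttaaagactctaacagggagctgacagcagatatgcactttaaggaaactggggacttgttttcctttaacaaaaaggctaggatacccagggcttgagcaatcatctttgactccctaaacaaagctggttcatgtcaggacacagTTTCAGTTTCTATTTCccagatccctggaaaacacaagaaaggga
Cxcl10 (chr5:92348890-92349139, - strand): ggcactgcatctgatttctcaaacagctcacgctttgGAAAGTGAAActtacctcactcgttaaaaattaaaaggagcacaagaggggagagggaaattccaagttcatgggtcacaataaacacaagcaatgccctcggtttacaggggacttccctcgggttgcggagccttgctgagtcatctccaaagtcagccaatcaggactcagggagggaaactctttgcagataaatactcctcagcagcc
Ifitm1 (chr7:140967826-140968075, + strand): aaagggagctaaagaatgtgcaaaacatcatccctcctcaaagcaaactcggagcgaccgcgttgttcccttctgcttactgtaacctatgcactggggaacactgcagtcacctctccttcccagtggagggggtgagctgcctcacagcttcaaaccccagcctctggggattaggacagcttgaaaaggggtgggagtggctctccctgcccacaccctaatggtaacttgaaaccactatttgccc

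Isg15 held 3 matches in 1 run, and Gbp3 held 2 that overlap. Ifit1 and Ifit3 each held 2 separate matches, Cxcl10 held 1 far from its start, and Ifitm1 held 0.

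Most members were expressed in untreated cells. The median of the 39 kept members in CTL was 31.5 FPKM, against 13.53 FPKM for all genes kept. It was 26.27 FPKM in Ti and 27.68 FPKM in Ti+Se-Met, against 14.29 and 13.64 FPKM for all genes kept. In CTL 5 of the 41 members were at 100 FPKM or more, 30 between 10 and 100, 4 between 1 and 10 and 2 below 1. Together the members made up 0.987% of all FPKM in CTL, 1.0% under Ti and 1.08% under Ti+Se-Met. Ifitm3, B2m and Ifitm2 held 68.6% of that sum in CTL and 77.1% in Ti. Without these 3 genes the sum was 1390.58 FPKM in CTL, 1206.61 under Ti and 1316.5 under Ti+Se-Met, so the sums with and without them are ordered differently.

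The deposited annotation ties 27 of the 41 members to the term defense response to virus (65.9%, against 0.968% of all listed genes). Innate immune response was given for 25 of them (61.0%, against 2.16%) and type I interferon signaling pathway for 6. The members were picked by name as interferon-stimulated genes, so these shares follow from that choice and are not a result. Several members lie near each other among the protein-coding genes of GRCm38.p6, where a gene that is not a member can lie between them. These are Ifitm1 with Ifitm2 and Ifitm3, Gbp2 with Gbp3, Parp9 with Dtx3l and Parp14, Oasl1 with Oasl2, Ifit2 with Ifit3, and Tap1 with Tap2.

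**Figure D1:**
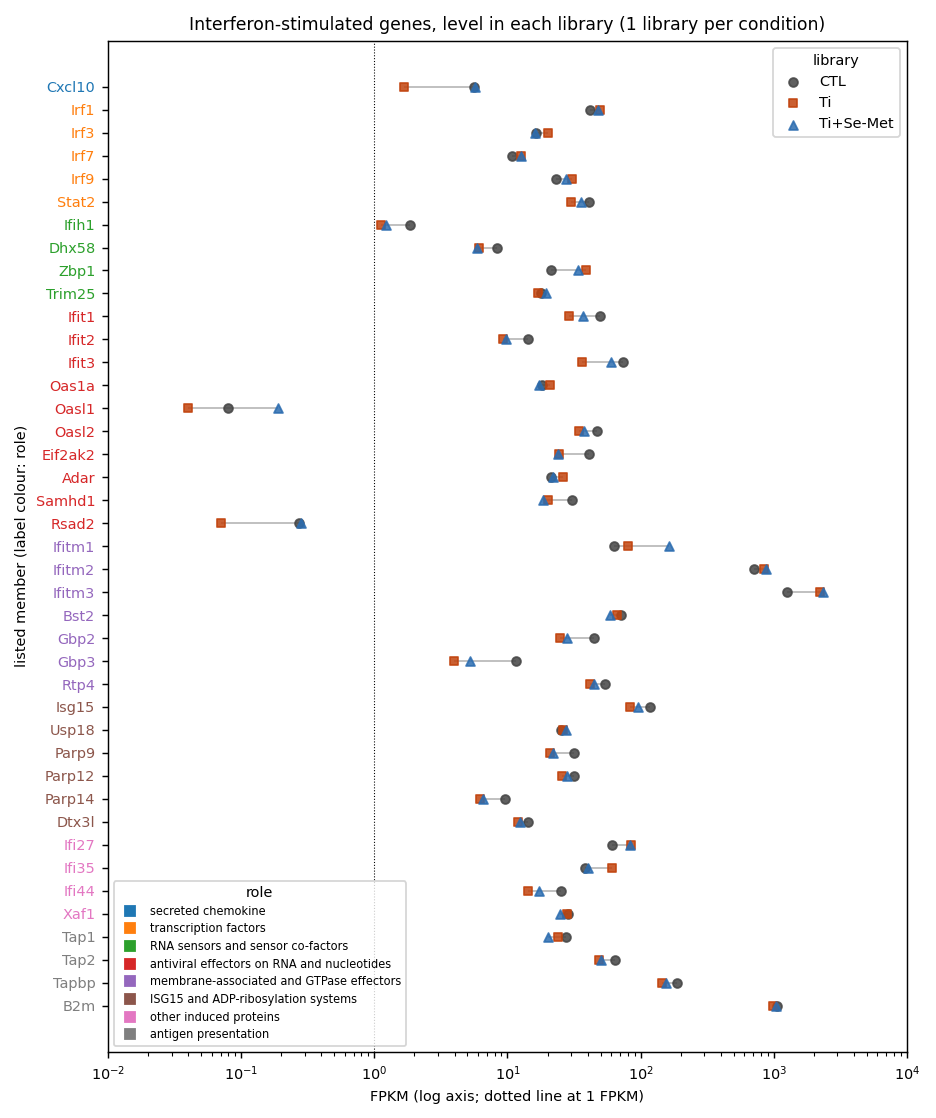
Level of each of the 41 listed members in the CTL, Ti and Ti+Se-Met libraries, in FPKM on a log axis, with 1 point per library and gene labels coloured by role. Ifitm3, B2m and Ifitm2 lie highest, and Oasl1 and Rsad2 lie below 1 FPKM in every library.

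In Ti against CTL more members were lower than higher. Of the 39 members kept, 26 were lower in Ti and 13 higher, against 44.5% lower and 55.3% higher among all genes kept. The median log2 difference of the members was -0.31, and that of all genes kept was 0.08. The counting interval lay below equal levels for 23 members (59.0%, against 32.3% of the 10919 genes with a transcript length) and above them for 11 (28.2%, against 43.1%). Such intervals are narrower for genes with more fragments. The kept members had a median of 31.5 FPKM in CTL, against 13.53 for all genes kept. The interval shares here and below are therefore not matched for level. Large differences were few. On the log2(FPKM + 1) scale Cxcl10 and Gbp3 were the 2 members at least 2-fold lower, which is 5.13% of the members against 3.64% of all genes kept, and 0 members were 2-fold higher, against 3.63%. The 2-fold count is thus near the background. Ifit3, at a plain ratio of 0.496, fell just short on that scale and was counted with a pseudocount of 0.1 and with median-of-ratios, upper-quartile or TPM scaling. At 1.5-fold, 7 members were lower (17.9%, against 11.3%) and 3 were higher (7.69%, against 15.5%). The direction of Irf7, Oas1a and Usp18, which were higher in Ti as deposited, turned when each library was rescaled to the same sum (TPM). That rescaling moved the median of all genes to -0.14, and upper-quartile scaling turned Usp18 as well.

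In Ti+Se-Met against CTL, a comparison that shares the CTL library, 26 members were again lower and 13 higher, against 48.8% and 51% of all genes kept. The median log2 difference was -0.20, against 0.01 for all genes. The counting interval was below equal levels for 23 members (59.0%, against 33.7%) and above for 8 (20.5%, against 36.2%). Ifitm1 was the 1 member at least 2-fold higher (2.56%, against 2.64% of all genes) and Gbp3 the 1 member at least 2-fold lower (2.56%, against 3.32%). Both shares are near the background. At 1.5-fold, 3 members were higher (7.69%, against 10.4%) and 4 lower (10.3%, against 11.7%). As TPM, Cxcl10, Trim25, Adar, Usp18 and Ifi35 turned from higher to lower, and with upper-quartile scaling Cxcl10 and Adar did.

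In Ti+Se-Met against Ti, which shares the Ti library with the first comparison, 25 members were higher and 14 lower, against 38.5% and 61.1% of all genes kept. The median log2 difference was 0.06, against -0.06 for all genes. Cxcl10 and Ifitm1 were at least 2-fold higher, 5.13% of the members against 0.162% of all genes, and 0 members were 2-fold lower, against 0.0629%. At 1.5-fold, 3 members were higher (7.69%, against 0.844%) and 1 was lower (2.56%, against 1.28%). Counting intervals lay above equal levels for 15 members (38.5%, against 16.2%) and below for 9 (23.1%, against 29.9%). Irf1, Dhx58, Eif2ak2 and Ifi27, which were slightly lower as deposited, turned to slightly higher with upper-quartile and with median-of-ratios scaling, and Eif2ak2 and Ifi27 also as TPM.

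By level, CTL was the highest of the 3 libraries for 24 of the 39 members (61.5%, against 40.0% of all genes with 3 different levels). Ti was the lowest for 20 of them (51.3%, against 24.3%). Ti+Se-Met was the highest for 7 members (17.9%, against 19.0%) and the lowest for 8 (20.5%, against 29.1%).

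**Figure D2:**
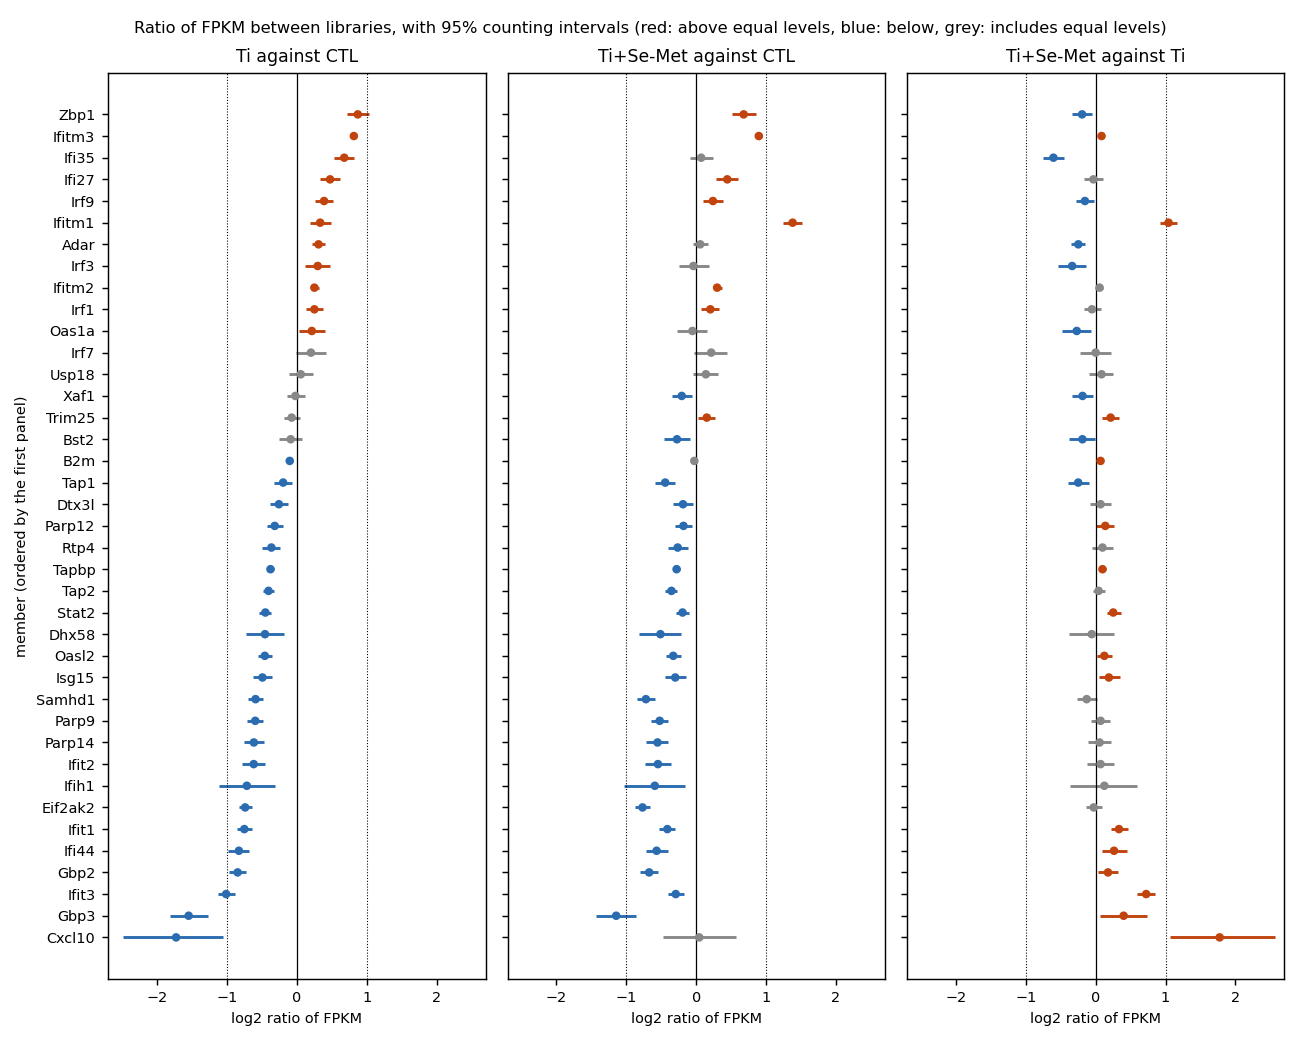
Log2 ratio of FPKM for the 39 members kept, in Ti against CTL, Ti+Se-Met against CTL and Ti+Se-Met against Ti, with bars for the 95% counting interval and dotted lines at 2-fold. In the first panel 23 members lie below equal levels and 11 above, and in the third Cxcl10 and Ifitm1 lie farthest to the right.

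Among the secreted products, Cxcl10 (GeneID 15945), a chemokine that draws activated T cells, was at 5.57 FPKM in CTL, 1.68 under Ti and 5.75 under Ti+Se-Met. The level in Ti was thus the low one, and the other libraries were close to each other. The ratio was 0.302 in Ti against CTL (interval 0.178 to 0.482) and 1.03 in Ti+Se-Met against CTL (0.719 to 1.48). It was 3.42 between Ti+Se-Met and Ti (2.1 to 5.9). These ratios rest on an estimated 74, 23 and 57 fragments, the fewest of any member kept.

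The transcription factors moved little, with log2 differences in Ti against CTL from -0.44 to 0.38 and 0 of 5 past 1.5-fold in any comparison. Stat2, which carries the transactivating part of the interferon-activated complex, was at 40.86 FPKM in CTL, 29.9 under Ti and 35.68 under Ti+Se-Met. Its ratio in Ti against CTL was 0.732 (interval 0.688 to 0.777). Irf9, the DNA-binding partner of STAT2, went the other way, at 23.12, 30.33 and 27.28 FPKM in the same order, with a ratio of 1.31 (1.2 to 1.43). These partners therefore did not share a direction.
Irf1, a factor induced by interferon gamma, was at 41.78, 49.76 and 47.99 FPKM. Irf3, which is activated by RNA and DNA sensing and induces interferon genes, was highest in Ti, at 20.19 FPKM against 16.45 in CTL and 15.99 in Ti+Se-Met. Irf7, the amplifier of interferon alpha production, was at 10.87, 12.54 and 12.56 FPKM, and its intervals included equal levels in all 3 comparisons.

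Among the sensors of nucleic acid, Zbp1 (GeneID 58203), which binds Z-form RNA and DNA and can start cell death, stood apart from the rest. It was at 21.12 FPKM in CTL, 38.72 under Ti and 33.85 under Ti+Se-Met, so that both Ti-treated libraries were above CTL. The ratio in Ti against CTL was 1.83 (interval 1.65 to 2.04) and in Ti+Se-Met against CTL 1.6 (1.43 to 1.8), and its log2 difference of 0.84 in Ti against CTL was the highest of the members kept. Ifih1, which encodes the sensor MDA5, was at 1.84, 1.12 and 1.22 FPKM, and Dhx58, which encodes its regulator LGP2, at 8.37, 6.1 and 5.87 FPKM. For both, the interval in Ti against CTL lay below equal levels. Trim25, a ubiquitin ligase of the RIG-I pathway, was at 17.74, 16.86 and 19.62 FPKM, with an interval in Ti against CTL of 0.88 to 1.03.

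The effectors that act on RNA and nucleotides were the group with the lowest median among those with at least 4 genes. It was -0.57 over the 8 of 10 kept in Ti against CTL. Of these 8 genes 6 were lower and 2 higher, against 44.5% and 55.3% of all genes kept. Ifit3 (GeneID 15959), a partner of IFIT1 in binding viral RNA, was at 73.56 FPKM in CTL, 36.47 under Ti and 60.02 under Ti+Se-Met. Its ratio was 0.496 in Ti against CTL (interval 0.456 to 0.539), and it was 1.65 for Ti+Se-Met over Ti (1.5 to 1.8), and on the log2(FPKM + 1) scale it lay just short of 2-fold in Ti, at -0.99. Of the 100-base windows of the longest Ifit3 transcript, 31.7% also occur in Ifit3b, a near copy, so reads may be split between them. Ifit3b was at 20.75, 7.22 and 12.56 FPKM, and the sum of both genes was 94.31, 43.69 and 72.58 FPKM, a ratio of 0.463 in Ti against CTL.
Ifit1, which binds RNA that lacks the host cap modification, was ordered the same way, at 49.14 FPKM in CTL, 29.2 under Ti and 36.88 under Ti+Se-Met. Its ratio in Ti against CTL was 0.594 (interval 0.55 to 0.642). Ifit2, another RNA-binding member of that family, was at 14.19, 9.25 and 9.71 FPKM, so that Ti+Se-Met lay with Ti and its interval against Ti, 0.915 to 1.2, included equal levels. Ifit1 shares 0.0% of its 100-base windows with Ifit2 and 0.0% with Ifit3.
Eif2ak2, which encodes the kinase PKR that halts translation on double-stranded RNA, was at 40.95 FPKM in CTL, 24.52 under Ti and 24.05 under Ti+Se-Met. Samhd1, which degrades deoxynucleotides, was at 30.42, 20.19 and 18.48 FPKM. Both were lower in both Ti-treated libraries, and for both the interval in Ti+Se-Met against Ti included equal levels. Oasl2, an oligoadenylate synthetase-like protein, was at 47.06, 34.27 and 37.46 FPKM.
Adar, the enzyme that edits adenosine to inosine in double-stranded RNA, was highest in Ti, at 26.27 FPKM against 21.27 in CTL and 22.13 in Ti+Se-Met. As TPM the log2 difference of Adar in Ti against CTL was 0.072, down from 0.292. Oas1a, a synthetase of the oligoadenylates that activate RNase L, was at 18.03, 20.95 and 17.37 FPKM, and 40.1% of the 100-base windows of its longest transcript are shared with Oas1g, so reads may be split there too. Rsad2, which encodes the antiviral enzyme viperin, was at 0.27, 0.07 and 0.28 FPKM, or about 14, 4 and 11 fragments. Its interval in Ti against CTL was 0.0657 to 0.873. Oasl1, on at most about 4 fragments, was at 0.08, 0.04 and 0.19 FPKM, and no difference was detectable at this depth.

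The membrane-associated effectors and GTPases held the highest member, Ifitm3, and had log2 differences from -1.34 to 0.81 in Ti against CTL. Ifitm3 (GeneID 66141), which blocks fusion of viruses in endosomes, was at 1266.24 FPKM in CTL, 2225.6 under Ti and 2351.66 under Ti+Se-Met. In CTL it ranked 32nd of all listed genes. Its ratio was 1.76 in Ti against CTL (interval 1.71 to 1.8) and 1.86 in Ti+Se-Met against CTL (1.81 to 1.91). Ifitm2, a close relative, was at 706.66, 842.27 and 872.7 FPKM, with both Ti-treated libraries above CTL.
Ifitm1 (GeneID 68713), their neighbour on chromosome 7, differed between the Ti-treated libraries. It was at 63.19 FPKM in CTL, 79.84 under Ti and 164.33 under Ti+Se-Met, and Ti+Se-Met stood well apart from the others. The ratio was 1.26 in Ti against CTL (interval 1.14 to 1.4), 2.6 in Ti+Se-Met against CTL (2.36 to 2.86) and 2.06 in Ti+Se-Met against Ti (1.89 to 2.25). Between these last libraries the ratio was 1.04 for Ifitm2 (0.997 to 1.08) and 1.06 for Ifitm3 (1.03 to 1.08). No 100-base window of the longest Ifitm1 transcript occurs in Ifitm2 or Ifitm3 (0.0% each).
Gbp3 (GeneID 55932), a guanylate-binding GTPase strongly induced by interferon gamma, was at 11.66 FPKM in CTL, 3.99 under Ti and 5.27 under Ti+Se-Met, both Ti-treated libraries far below CTL. Its ratio was 0.342 in Ti against CTL (interval 0.283 to 0.415), 0.452 in Ti+Se-Met against CTL (0.37 to 0.549) and 1.32 in Ti+Se-Met against Ti (1.04 to 1.67). Gbp2, a nearby gene for a GTPase of the same family, was at 44.85, 24.95 and 28.1 FPKM, with a ratio of 0.556 in Ti against CTL (0.511 to 0.605).
Bst2, which encodes tetherin and holds budding viruses on the cell surface, was at 71.2, 67.03 and 58.8 FPKM. Rtp4, a chaperone of membrane receptors, was at 53.7, 41.7 and 44.66 FPKM.

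In the ISG15 and ADP-ribosylation systems 5 of 6 genes were lower in Ti than in CTL, against 44.5% of all genes kept. Log2 differences of the 6 ran from -0.57 to 0.06. Isg15 (GeneID 100038882), a ubiquitin-like protein that is joined to other proteins, was at 117.73 FPKM in CTL, 83.73 under Ti and 95.64 under Ti+Se-Met. Its ratio in Ti against CTL was 0.711 (interval 0.646 to 0.783). Usp18, the protease that removes ISG15 and damps receptor signaling, did not go with it, at 25.19, 26.23 and 27.68 FPKM, and its interval of 0.928 to 1.17 in Ti against CTL included equal levels.
Parp9 and its ubiquitin ligase partner Dtx3l, adjacent genes, were at 31.5, 20.86 and 21.93 FPKM and at 14.26, 11.93 and 12.5 FPKM. Parp14, an ADP-ribosyltransferase next to them, was at 9.55, 6.24 and 6.5 FPKM, and Parp12, another such enzyme, at 31.86, 25.58 and 28.06 FPKM. All 4 were highest in CTL and lowest in Ti. In Ti+Se-Met against Ti the 6 genes of the group were higher by log2 differences of only 0.05 to 0.19, and 2 of the 6 intervals, those of Isg15 and just barely Parp12, lay above equal levels. Of all genes kept 38.5% were higher there, and 16.2% of those with a transcript length had such an interval.

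Among the other induced proteins, Ifi35 (GeneID 70110), a leucine zipper protein that partners NMI, was highest in Ti. It was at 38.33 FPKM in CTL, 61.4 under Ti and 40.38 under Ti+Se-Met. The ratio was 1.6 in Ti against CTL (interval 1.45 to 1.77) and 0.658 for Ti+Se-Met over Ti (0.591 to 0.731), while Ti+Se-Met against CTL, at 1.05, included equal levels. Ifi35 was the 1 member at least 1.5-fold lower in Ti+Se-Met than in Ti, an order opposite to that of Cxcl10 and Ifit3.
Ifi44, a cytoplasmic antiviral protein, was at 25.33, 14.25 and 17.1 FPKM, with a ratio of 0.563 in Ti against CTL (interval 0.507 to 0.624). Ifi27, a mitochondrial membrane protein, was at 61.42, 85.28 and 83.43 FPKM, and Xaf1, which counters the apoptosis inhibitor XIAP, at 28.44, 28.04 and 24.63 FPKM.

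All 4 members of antigen presentation were lower in Ti than in CTL, by small amounts, where 44.5% of all genes kept were lower. B2m, the light chain of MHC class I, was at 1059.35 FPKM in CTL, 987.02 under Ti and 1039.58 under Ti+Se-Met, with a ratio in Ti against CTL of 0.932 (interval 0.907 to 0.957). Tapbp, which encodes tapasin, was at 187.99, 144.66 and 154.72 FPKM. The peptide transporter genes Tap1 and Tap2 were at 27.3, 23.84 and 20.06 FPKM and at 64.39, 48.63 and 50.33 FPKM, so that Tap1 was lowest in Ti+Se-Met and Tap2 in Ti.

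Upstream of the members, 17 of 19 interferon genes were not listed. The other 2 were Ifne, at 0.28 FPKM in CTL and listed at 0 in Ti and Ti+Se-Met, and Ifnz, listed at 0 in CTL and at 0.18 and 0.14 FPKM in Ti and Ti+Se-Met. Of 15 genes of interferon receptors and their signaling 14 were kept, with a median log2 difference of 0.00 in Ti against CTL. There 1 was 2-fold higher and 0 were 2-fold lower on the log2(FPKM + 1) scale, against 3.63% and 3.64% of all genes kept. By plain ratio Ptpn6, a phosphatase that damps cytokine signaling, was lower (chosen after its values were seen), at 0.441 on levels of 1.11 and 0.49 FPKM in CTL and Ti. The largest differences were in Socs3, an inhibitor of cytokine signaling (16.84, 41.26 and 45.85 FPKM), and Stat3 (45.93, 65.86 and 64.81 FPKM) on the higher side. On the lower side it was in Jak2, a receptor-associated kinase (19.8, 11.6 and 11.92 FPKM). Of 22 listed genes of nucleic acid sensing 17 were kept, with 8 higher and 8 lower in Ti against CTL, against 55.3% and 44.5% of all genes kept. On the log2(FPKM + 1) scale 0 of them were past 2-fold, against 3.63% higher and 3.64% lower among all genes kept. The extremes were Ifi204 (1.39, 3.49 and 3.46 FPKM, a plain ratio of 2.51 in Ti against CTL) and Myd88 (12.74, 20.24 and 16.73 FPKM) above, and Ddx58, which encodes RIG-I (37.68, 26.52 and 30.33 FPKM), below, with Aim2 (1.19, 0.72 and 0.91 FPKM).
A further list of 60 interferon-stimulated genes that are not members had 51 kept. In Ti against CTL 35 were lower and 16 higher, against 44.5% and 55.3% of all genes kept. The median log2 difference of the list was -0.38, against 0.08. On the log2(FPKM + 1) scale 10 were 2-fold lower and 0 higher, against 3.64% and 3.63% of all genes kept. Low genes such as Ifi204, at the plain ratio of 2.51, and Ddx60, at 0.323 and chosen after its values were seen, are past 2-fold without being counted there. Its lowest were Ccl5, a chemokine (20.03, 3.86 and 4.04 FPKM), and Gbp4 (12.74, 2.97 and 3.61 FPKM), and its highest Ifi204 and Pml (12.77, 20.72 and 16.46 FPKM). More guanylate-binding genes of that list, chosen after their values were seen, lay the same way. Gbp6 was at 34.71, 10.6 and 9.69 FPKM, Gbp7 at 3.2, 1.39 and 1.84 FPKM and Gbp9 at 27.85, 9.47 and 10.05 FPKM, each highest in CTL. Gbp5, which was not kept, was at 0.48, 0.12 and 0.59 FPKM. In Ti+Se-Met against Ti the list had a median of 0.02, with 27 higher, 24 lower and 0 past 2-fold. Of all genes kept 38.5% were higher there and 61.1% lower, with 0.162% and 0.0629% past 2-fold.
Of 19 genes of MHC class I and peptide loading 16 were kept. In Ti against CTL 13 were lower and 3 higher, against 44.5% and 55.3% of all genes kept. The median was -0.27, against 0.08. H2-T23, a nonclassical MHC gene (88.76, 46.15 and 48.76 FPKM), and Calr, an endoplasmic reticulum chaperone (429.33, 273.35 and 373.05 FPKM), were lowest by log2 difference. Psmb8, an immunoproteasome subunit (3.13, 5.43 and 5.37 FPKM), and Tapbpl (9.41, 13.59 and 10.97 FPKM) were highest.

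**Figure D3:**
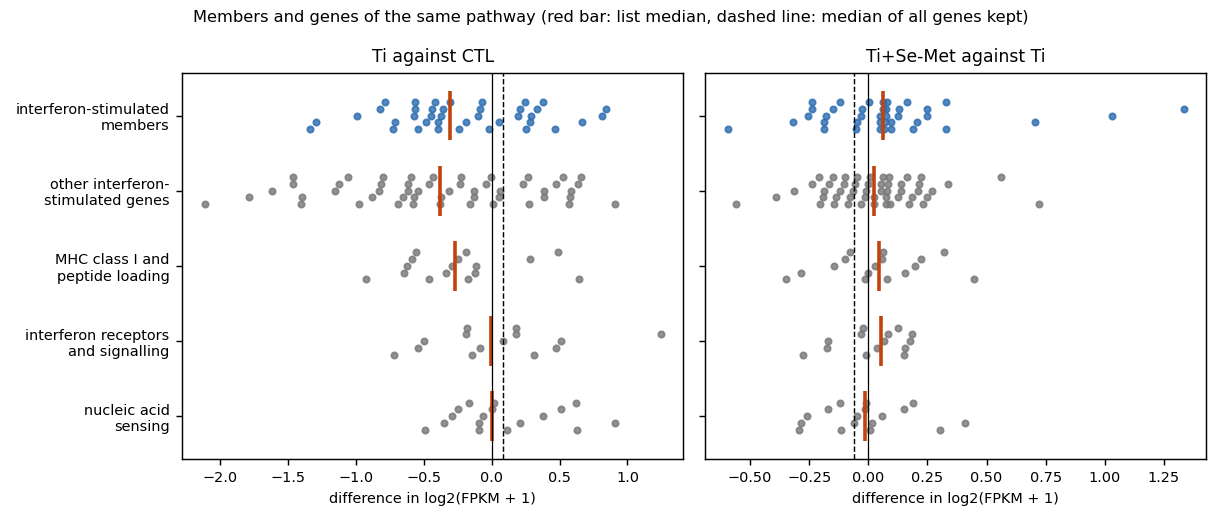
Difference in log2(FPKM + 1) for the 39 members kept and for 4 lists of the same pathway, in Ti against CTL (left) and Ti+Se-Met against Ti (right), with 1 point per gene, a red bar at each list's median and a dashed line at the median of all genes kept. In the left panel the medians are -0.31 for the members, -0.38 for the other interferon-stimulated genes and -0.27 for MHC class I, against 0.08 for all genes.

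The members were also split by their promoter windows. Of the 31 kept members with a window, 14 held the response element core and 17 did not. In Ti against CTL 44.5% of all genes kept were lower. Of the 14 members with the core 11 were lower, with a median log2 difference of -0.46 and a range of -1.34 to 0.81. Of the 17 without a match, 10 were lower, with a median of -0.07 and a range of -0.79 to 0.67. The medians for Ti+Se-Met against Ti were 0.12 and 0.00. The ranges overlapped widely, and Ifitm3 with 2 matches and Isg15 with 3 lay on opposite sides of equal levels. Both matches of Ifitm3 begin after the transcript start. No test was made of this split.

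**Figure D4:**
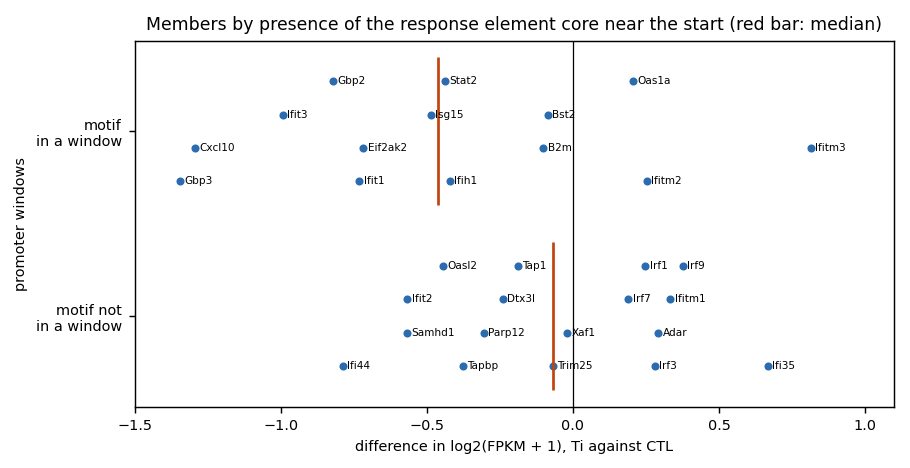
Difference in log2(FPKM + 1) in Ti against CTL for the 31 kept members with a promoter window, 1 point per gene, split by whether a window held the response element core (14 members) or did not (17), with a red bar at each median. The medians are -0.46 and -0.07, and both rows span equal levels.

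Over the 3 libraries, the genes outside the lists with at least 5 FPKM on average whose centred log2 profile lay nearest to the median profile of the members were Mcur1, Cog7, Pdpk1, Clstn1 and Lrrc49. Their Euclidean distances were between 0.0017 and 0.0131. Of 8609 such genes 478 lay within 0.1, so 3 libraries hold too little to single out a profile.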

How the data were processed

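RNA-seq of 3 libraries was used, 1 per condition. Per the paper's methods, the authors deleted whole reads of low quality or with adapter, aligned the rest with HISAT2 and used HTSeq to count genes. The submitters' processing notes name StringTie and the build mm9 as well. The authors deposited FPKM values, each library relative to its own total and rounded to 2 decimals. How FPKM was made is not given in the sources used here. No gene in the table is at 0 in all libraries (0 such genes), and 0 FPKM columns were left unmatched to a library.

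Log2(FPKM + 1) differences and intervals were obtained with scipy 1.17.1, pandas 2.3.3 and numpy 2.4.6 under Python 3.11.15. The depth estimates and the recovery of genes with a set change were tested on simulated data. The simulation used the same transcript lengths as the estimate, and the intervals were not tested. FPKM values are not counts, and no count model was used. Depth was estimated from the spacing of low FPKM values in 453 genes with 1 transcript of 350 to 1000 bases, after taking 150 bases off each length, with depths from 6000000 to 18000000 fragments tried. Of the low values 44.3%, 32.7% and 31.2% lay on a step in CTL, Ti and Ti+Se-Met, against 8.1%, 8.3% and 5.8% by chance, so the depths are approximate. Transcript lengths came from GENCODE M21, the longest per gene, and were found for 95.3% of genes. With them the values added up to 108.4% to 110.2% of the fragments. Low levels in Ti+Se-Met, the shallowest library, have the widest counting error.

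The members, the other gene lists and the tests were chosen with earlier results of these data known. Each member is accounted for. Of the other lists, the 2 highest and 2 lowest genes in Ti against CTL are named, except 1 item that is not reported here. The alternatives tried were upper-quartile, TPM and median-of-ratios scaling, a threshold of 1.5-fold, a mean of at least 5 FPKM, no filter, and pseudocounts of 5 and 0.1. A comparison of the Ifitm and Ifit proteins that had been planned was replaced by the share of 100-base windows between transcripts. Promoter coordinates are on GRCm38.p6 and were not combined with the files.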

Additional observations from a re-analysis of the deposited data

How the results depend on the processing

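No paired analysis was possible because there was 1 library per condition, which also left none to be omitted. Counts of members past 2-fold were small and moved with the setting. For Ti against CTL the 2 members lower, against 3.64% of all genes, became 0 with a pseudocount of 5, against 1.55%. With a mean of at least 5 FPKM, where Cxcl10 is removed, the count was 1, against 3.1%. As TPM it was 5, against 7.76%, with Ifit3, Gbp2 and Ifi44 added to Cxcl10 and Gbp3. With a pseudocount of 0.1, median-of-ratios or upper-quartile scaling it was 3, Ifit3 being added, against 5.98%, 3.88% and 4.8% of all genes. At 1.5-fold 7 were lower and 3 higher, against 11.3% and 15.5% of all genes. For Ti+Se-Met against CTL the 1 member lower, Gbp3, against 3.32% of all genes, became 0 in 2 settings. These were a pseudocount of 5, against 1.1%, and median-of-ratios scaling, against 3.15%. In that comparison 4 were lower and 3 higher at 1.5-fold, against 11.7% and 10.4% of all genes. For Ti+Se-Met against Ti the 2 members higher, against 0.162% of all genes, became 0 with a pseudocount of 5, against 0.018%. With a mean of at least 5 FPKM, where Cxcl10 is removed, the count was 1, against 0.0916%. At 1.5-fold 1 was lower there, against 1.28%. A higher pseudocount lowers counts by construction and a lower threshold raises them. With no filter the counts were the same, both for the members and for all genes.

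The median log2 difference of the members in Ti against CTL, -0.31, was -0.54 as TPM and -0.44 with upper-quartile scaling, and in Ti+Se-Met against CTL -0.20 became -0.40 as TPM, where every gene is lowered by the same factor. These medians kept their sign under all 7 alternatives, as did that of Ti+Se-Met against Ti. Counts of counting intervals under other scalings were added after the data were seen. Intervals above equal levels fell to 5 members as TPM, from 11 in Ti against CTL and from 8 in Ti+Se-Met against CTL, while the share of all genes went from 43.1% to 28.1% and from 36.2% to 22.1%. Intervals below equal levels in Ti+Se-Met against Ti went from 9 to 5 with median-of-ratios and to 4 with upper-quartile scaling, and those of all genes from 29.9% to 20.6% and 20.2%. Intervals above equal levels there went from 15 to 19 members under both scalings, and from 16.2% to 23.1% and 23.5% of all genes. Depth limits Cxcl10, Ifih1, Rsad2 and Oasl1 most.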
